A study of Mus musculus with 12 samples.

Results

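The CC chemokine genes of macrophages described here are Ccl2, Ccl3, Ccl4, Ccl5, Ccl6, Ccl7, Ccl9, Ccl12, Ccl17 and Ccl22. A probe set was taken for a gene where that gene was the only symbol the probe table gives it, which yielded 12 probe sets of 20380 that carry 1 symbol. Where a gene had several, the one brightest on average across the 12 arrays stands for it, so 10 genes stand among 12393. Ccl6 and Ccl9 had a further probe set each, which is reported beside the main one.

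The samples were mouse macrophages grown from bone marrow of the strain labelled 129-SvEv-Tac, and the genotypes were p50-/-IL10-/- and IL10-/-. Both lack the gene for interleukin 10 (IL-10), so neither can supply its own IL-10, and p50-/-IL10-/- cells additionally lack Nfkb1, the gene of the NF-kB proteins p105 and p50. In each genotype cells received 1 ng/ml lipopolysaccharide (LPS, from bacterial cell walls) with 0.3 ng/ml IL-10, 1 ng/ml LPS alone, or no stimulus, and RNA was taken 4 h later. Each of the 6 groups held 2 arrays that the labels call biological replicates, and how many mice they came from is not stated in the labels. The loss of p105 cannot be told apart from that of p50, and Nfkb1 transcripts were not analysed here.

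Values are log2 expression from RMA, the array summary the authors deposited. Array medians lay between 6.92 and 6.96 log2, and Pearson's r across genes was 0.992 to 0.997 between the arrays of each group. A level under 5.60 log2, the highest lower quartile of any array, is called dim here, and changes that start or end there have uncertain sizes. Macrophage markers were high on every array: Csf1r, the receptor for the macrophage growth factor, read 13.43 to 13.65 log2, and none of the 8 markers was dim. Markers of other cells were dim in part. In each group 4 of 7 dendritic, 2 to 3 of 7 T and NK and 3 to 4 of 6 mast cell and basophil markers were dim, among them Zbtb46, Xcr1, Cd3g, Cd3d, Fcer1a and Ms4a2 in all groups. Others of these lists were not dim, with group means of 7.25 to 7.47 log2 for Cd3e, 6.99 to 7.45 for Cd4, 7.18 to 7.46 for Flt3 and 6.44 to 6.80 for Cma1. Of 5 measured B cell markers, 0 to 2 were dim in a group. In p50-/-IL10-/- cells 3 of them (Ms4a1, Pax5 and Blk) were called higher with LPS and IL-10 than without stimulus. Of all genes, 16.7% were called higher in that comparison. Neutrophil and stromal lists differed between the genotypes and are given beside the genotype comparison. For Ccl5, array 2 of unstimulated IL10-/- cells stood apart from its partner, with 8.21 log2 on array 2 and 11.06 log2 on array 1, so results for that gene are given with and without it.

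CC chemokines are small secreted proteins, named for a pair of adjacent cysteines, that draw leukocytes by binding G-protein coupled receptors. Ccl2, Ccl7 and Ccl12 attract monocytes through Ccr2. Ccl3, Ccl4 and Ccl5 attract monocytes, T cells and other leukocytes, and Ccl6 and Ccl9 act through Ccr1. Ccl17 and Ccl22 are ligands of Ccr4 and are best known from dendritic cells and from macrophages given interleukin 4. Many of these genes are targets of NF-kB, whose p50 subunit lacks a transactivation domain of its own, and IL-10 restrains macrophage activation through the transcription factor STAT3.

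Promoter windows of 300 bases, reaching from 250 bases before to 50 after the annotated start, were found for 6 of the 10 genes in a RefSeq table of build GRCm38.p6. The windows of Ccl6 and Ccl9 are shown first because these genes had the clearest genotype differences and because their windows resembled each other. In the local alignment of the 15 pairs of windows, Ccl6 and Ccl9 had the highest score, with 58 identical bases of 67 aligned. The next score was shared by Ccl3 with Ccl12 (20 identical bases of 24 aligned) and Ccl9 with Ccl17 (14 of 16). Capitals mark runs of at least 8 bases that are identical in the Ccl6 and Ccl9 alignment, 42 bases in all. The aligned stretch lies mostly before the annotated start in Ccl6 and mostly after it in Ccl9.
Ccl6, chr11:83593038-83593337, minus strand: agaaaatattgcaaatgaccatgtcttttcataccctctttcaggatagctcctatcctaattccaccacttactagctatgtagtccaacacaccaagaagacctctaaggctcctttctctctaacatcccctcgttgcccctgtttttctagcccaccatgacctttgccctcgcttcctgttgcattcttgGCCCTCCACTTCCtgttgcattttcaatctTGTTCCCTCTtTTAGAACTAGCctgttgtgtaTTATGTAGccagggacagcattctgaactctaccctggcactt
Ccl9, chr11:83578587-83578886, minus strand: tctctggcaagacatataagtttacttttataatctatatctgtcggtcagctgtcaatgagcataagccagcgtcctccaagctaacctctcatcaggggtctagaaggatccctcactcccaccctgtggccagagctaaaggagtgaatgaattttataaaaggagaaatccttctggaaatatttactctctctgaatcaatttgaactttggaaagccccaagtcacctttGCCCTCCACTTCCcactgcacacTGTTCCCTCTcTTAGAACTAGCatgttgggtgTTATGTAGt

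The windows of Ccl3 and Ccl12 are shown as those of genes that rose strongly with LPS, and capitals mark the core letters GAGGAA of the myeloid factor PU.1, found on either strand.
Ccl3, chr11:83649329-83649628, minus strand: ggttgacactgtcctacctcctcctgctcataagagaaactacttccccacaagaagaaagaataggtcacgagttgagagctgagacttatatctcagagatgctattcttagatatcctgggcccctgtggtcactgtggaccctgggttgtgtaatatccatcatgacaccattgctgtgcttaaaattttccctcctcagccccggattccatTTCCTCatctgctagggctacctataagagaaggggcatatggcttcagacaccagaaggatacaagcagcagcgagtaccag
Ccl12, chr11:82101595-82101894, plus strand: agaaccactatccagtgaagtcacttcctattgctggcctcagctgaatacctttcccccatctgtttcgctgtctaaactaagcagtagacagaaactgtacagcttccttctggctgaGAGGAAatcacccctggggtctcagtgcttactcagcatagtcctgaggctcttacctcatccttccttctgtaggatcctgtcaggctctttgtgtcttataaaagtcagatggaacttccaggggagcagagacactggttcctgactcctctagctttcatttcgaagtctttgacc

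The PU.1 core matched the windows of Ccl3, Ccl12 and Ccl17, against 28.3% of the 32851 windows in the table. The kappaB consensus, searched on both strands, matched the window of Ccl9 alone, at positions -35 to -26 from the start, and 4.51% of all windows hold a match. Neither the core of the interferon-stimulated response element (3.44% of windows) nor TTGCNNAA, a C/EBP motif (10.8%), matched any of the 6. A match describes letters in the window and not a site in use, and sites outside these windows were not searched.

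LPS against no stimulus asked which of these genes the stimulus raises in each genotype. Of the 10 genes, 6 rose and 1 fell in p50-/-IL10-/- cells, where 10.3% of all genes rose and 22.1% fell, and 7 rose and 1 fell in IL10-/- cells, where 7.76% rose and 17.1% fell. The median change of the 10 was 2.65 log2 without p50 and 2.92 log2 with it, against -0.01 log2 for all genes in both genotypes. In these bulk samples a change in RNA per cell cannot be told apart from a change in the share of cells that express a gene.

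Among the Ccr2 ligands, Ccl2 (gene ID 20296) read 11.19 and 10.87 log2 in LPS-treated p50-/-IL10-/- cells, against 6.31 and 6.71 in unstimulated ones, a rise of 4.52 ± 0.17 log2 or 23.0-fold (SE, n = 2 arrays per group, adjusted p 4.39e-08). IL10-/- cells read 10.67 and 10.39 log2 with LPS, against 7.03 and 7.41 without stimulus, a rise of 3.31 ± 0.17 log2 or 9.89-fold (adjusted p 5.54e-07). LPS-treated and unstimulated arrays were far apart in both genotypes. Its rise was 1.22 ± 0.24 log2 larger without p50 (adjusted p 0.04), a difference that 1.19% of all genes passed in either direction. The call was lost in 5 of 8 leave-one-array-out fits, with an adjusted p of up to 0.163 when array 1 of LPS-treated p50-/-IL10-/- cells was dropped. It was lost as well when the groups concerned were fitted alone (0.11) and when all probe sets were tested (0.0576).

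Ccl12 (gene ID 20293), whose product also binds Ccr2, read 10.99 and 9.78 log2 in LPS-treated p50-/-IL10-/- cells, against 5.10 and 4.92 in unstimulated cells. For IL10-/- cells the values were 10.79 and 9.40 log2 with LPS, against 5.44 and 4.94 without stimulus. The rises of 5.38 ± 0.52 and 4.91 ± 0.52 log2 were the largest of the 10 genes, although they start from dim levels and the LPS arrays lay wide apart within each genotype. Ccl7 (gene ID 20306), a further monocyte attractant, read 9.30 and 8.56 log2 with LPS, against 5.64 and 5.96 without stimulus, in p50-/-IL10-/- cells. It read 9.46 and 8.56 log2 with LPS, against 6.57 and 6.24 without stimulus, in IL10-/- cells. Its rises were 3.13 ± 0.34 and 2.61 ± 0.34 log2 (adjusted p 4.85e-05 and 0.000272), and neither this gene nor Ccl12 had a called difference between the genotypes in its response (0.53 ± 0.48 and 0.47 ± 0.74 log2).

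Among the attractants of monocytes and T cells, Ccl3 (gene ID 20302) read 11.28 and 10.74 log2 in LPS-treated p50-/-IL10-/- cells, against 8.03 and 7.80 in unstimulated ones. It read 12.17 and 11.52 log2 in LPS-treated IL10-/- cells, against 8.71 and 8.52 in unstimulated ones. Both genotypes thus showed a rise of similar size, 3.10 ± 0.21 and 3.23 ± 0.21 log2, and the difference of -0.13 ± 0.30 log2 was not called. Ccl4 (gene ID 20303) read 12.30 and 12.12 log2 with LPS, against 8.23 and 8.30 without, in p50-/-IL10-/- cells, and rose by 3.95 ± 0.28 log2. The IL10-/- arrays read 12.54 and 11.71 log2 with LPS, against 8.99 and 8.30 without, and the gene rose by 3.47 ± 0.28 log2.

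Ccl5 (gene ID 20304) was already high without stimulus on 3 of 4 arrays. In p50-/-IL10-/- cells it read 13.26 and 13.20 log2 with LPS, against 11.11 and 10.96 without, a rise of 2.20 ± 0.63 log2 (adjusted p 0.0214). IL10-/- arrays read 13.10 and 12.92 log2 with LPS, against 11.06 and 8.21 without, a rise of 3.38 ± 0.63 log2 (adjusted p 0.00275). The SE is shared by all groups and carries the gap between the unstimulated IL10-/- arrays. Without array 2 of those cells the rise in IL10-/- cells was 1.95 log2 (adjusted p 3.96e-05), and without array 1 it was 4.80 log2. Fitted on these groups alone it was not called (adjusted p 0.0555). The rise in p50-/-IL10-/- cells was not called in any of 4 leave-one-array-out fits (adjusted p up to 0.104), nor with robust eBayes (0.0876), although its LPS-treated and unstimulated arrays did not overlap. The genotype difference of the rise was -1.18 ± 0.90 log2, not called. It was 0.25 log2 without array 2 of unstimulated IL10-/- cells and -2.60 log2 without array 1, so it rested on 1 array.

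Ccl9 (gene ID 20308) and Ccl6 (gene ID 20305) were high in every group. Ccl9 read 11.61 and 11.17 log2 with LPS, against 11.19 and 10.86 without, in p50-/-IL10-/- cells, where the ranges overlapped and the change of 0.36 ± 0.15 log2 was not called (adjusted p 0.1). With arrays centred on their medians this change was called (0.49 log2, adjusted p 0.0336). Without array 2 of the LPS-treated cells it was 0.59 log2. In IL10-/- cells Ccl9 read 12.93 and 12.88 log2 with LPS, against 12.03 and 12.04 without, a rise of 0.87 ± 0.15 log2 (adjusted p 0.00187). Its other probe set gave 0.49 ± 0.25 log2, not called, and 1.13 ± 0.25 log2, called, and the genotype difference of the response was not called on either probe set.

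Ccl6 was the gene that fell, by 0.28 ± 0.08 log2 in p50-/-IL10-/- cells and by 0.25 ± 0.08 log2 in IL10-/- cells (adjusted p 0.0173 and 0.0368). These small changes were not called once arrays had been centred on their medians (-0.15 and -0.16 log2, adjusted p 0.142 and 0.154), on the other probe set (0.0641 and 0.264), or in 3 of 4 leave-one-array-out fits in each genotype (up to 0.124 without array 1 of unstimulated p50-/-IL10-/- cells and 0.201 without array 1 of LPS-treated IL10-/- cells). Ccl17 and Ccl22 moved by 0.16 to 0.26 log2 and were not called.

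**Figure D1:**
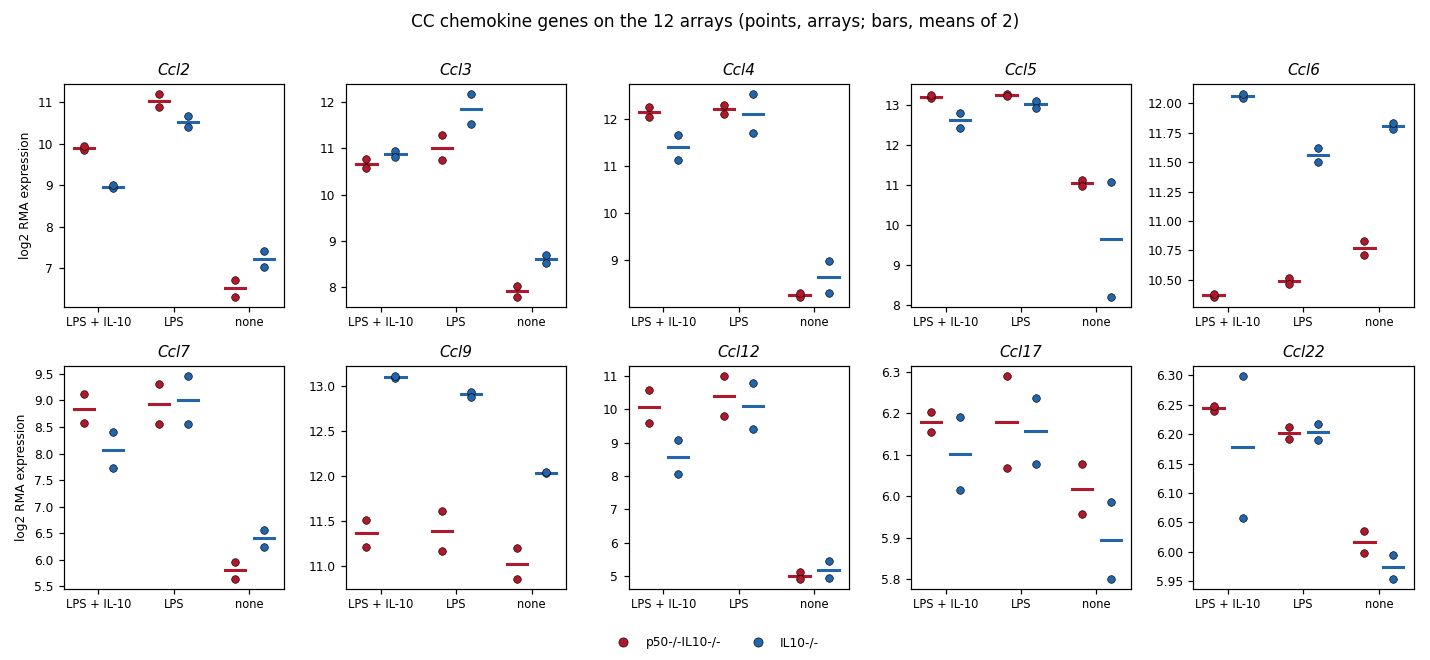
Log2 RMA expression (vertical axes, scaled separately per gene) of the 10 CC chemokine genes on the 12 arrays, by stimulus (LPS with IL-10, LPS, none) and genotype (red, p50-/-IL10-/-; blue, IL10-/-), with points for arrays and bars for means of 2. Ccl6 and Ccl9 arrays of p50-/-IL10-/- cells lie below those of IL10-/- cells at all 3 stimuli, Ccl2 is raised by LPS and lower with IL-10, and the unstimulated IL10-/- arrays of Ccl5 read 11.06 and 8.21 log2.

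IL-10 given together with LPS, against LPS alone, asked how the cytokine alters chemokine transcripts. In p50-/-IL10-/- cells 1 of 10 genes was lower and 0 were higher (2.87% and 3.7% of all genes), and at an unadjusted limma p under 0.05 the only gene was again that 1. In IL10-/- cells 2 were lower and 1 was higher (2.82% and 3.35% of all genes), and 6 of the 10 had an unadjusted p under 0.05. The share of all genes under that unadjusted threshold was not counted, here or below, so the unadjusted counts have no baseline. The medians were -0.07 log2 without p50 and -0.56 log2 with it, against 0.05 and 0.01 log2 for all genes. The LPS arrays enter both this comparison and the one above.

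Ccl2 fell in both genotypes. It read 9.85 and 9.95 log2 with LPS and IL-10, against 11.19 and 10.87 with LPS, in p50-/-IL10-/- cells, a fall of 1.14 ± 0.17 log2 (2.20-fold, adjusted p 0.00312). The same gene in IL10-/- cells read 8.93 and 9.00 log2 with LPS and IL-10, against 10.67 and 10.39 with LPS, a fall of 1.56 ± 0.17 log2 (2.95-fold, adjusted p 0.000352). The arrays of the stimuli did not overlap in either genotype, and the difference between these effects, 0.43 ± 0.24 log2, was not called (adjusted p 0.516).

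Ccl3 read 10.57 and 10.77 log2 with both agents in p50-/-IL10-/- cells, against 11.28 and 10.74 with LPS, and its change of -0.34 ± 0.21 log2 was not called. In IL10-/- cells it read 10.95 and 10.82 log2 with both, against 12.17 and 11.52 with LPS, a fall of 0.96 ± 0.21 log2 (adjusted p 0.0222). The call was lost in 3 of 4 leave-one-array-out fits (adjusted p up to 0.15, without array 1 of LPS-treated cells) and when both groups were fitted alone (0.104).

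Ccl6 rose in IL10-/- cells, to 12.05 and 12.08 log2 with both agents, against 11.50 and 11.62 with LPS, by 0.51 ± 0.08 log2 (adjusted p 0.0028), and its other probe set gave 0.70 ± 0.12 log2 (adjusted p 0.00656). Fitted on both groups alone the rise was not called (adjusted p 0.0697). In p50-/-IL10-/- cells Ccl6 read 10.36 and 10.38 log2 with both, against 10.52 and 10.47 with LPS, and its change of -0.13 ± 0.08 log2 was not called. The genotype difference of this effect was -0.63 ± 0.11 log2 and missed the threshold (adjusted p 0.0675), as it did on the other probe set (-1.07 ± 0.16 log2, adjusted p 0.0505).

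Ccl12 read 9.59 and 10.56 log2 with both agents in p50-/-IL10-/- cells, against 10.99 and 9.78 with LPS, so the groups overlapped. IL10-/- arrays gave 9.07 and 8.06 log2 with both, against 10.79 and 9.40 with LPS. These groups did not overlap, but the difference of -1.53 ± 0.52 log2 was not called (adjusted p 0.14). Ccl7 differed by -0.09 ± 0.34 and -0.95 ± 0.34 log2, and Ccl4 by -0.05 ± 0.28 and -0.72 ± 0.28 log2, in p50-/-IL10-/- and in IL10-/- cells, and none of these was called. Without array 2 of LPS-treated IL10-/- cells, Ccl4, Ccl7 and Ccl12 were called lower in IL10-/- cells (adjusted p 0.0305, 0.0409 and 0.0348). Tested directly, the effect of IL-10 differed between the genotypes for 0 of 10 genes in limma (0.137% of all genes), and for 1, Ccl6, at an unadjusted p under 0.05.

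**Figure D2:**
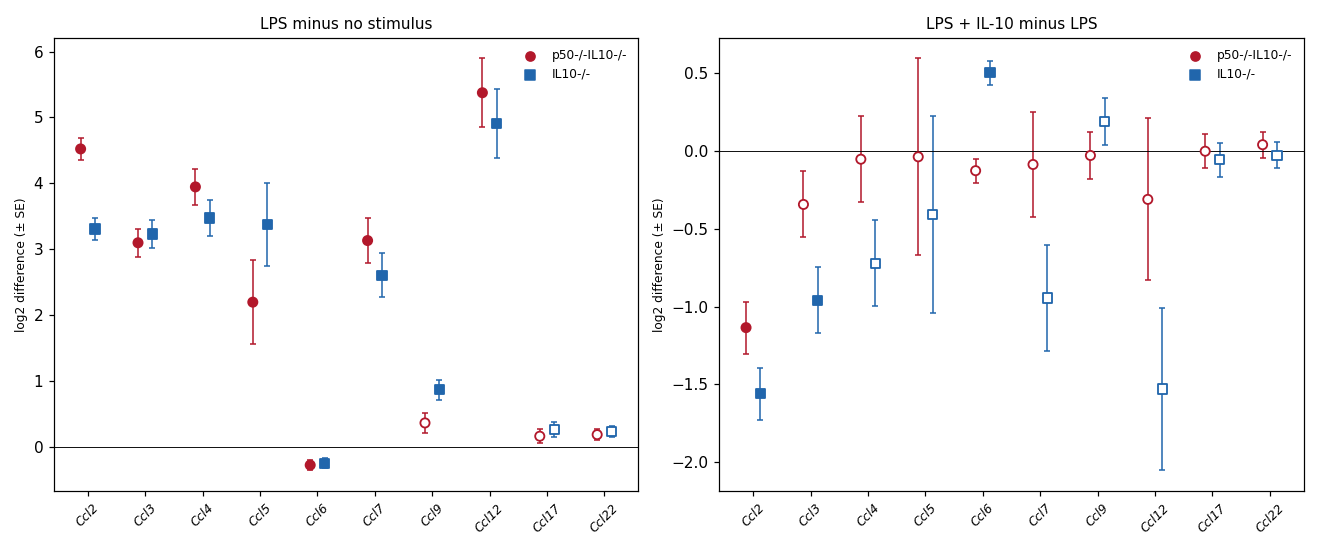
Log2 differences with their SE (vertical axes) for the 10 CC chemokine genes, with LPS minus no stimulus on the left and LPS with IL-10 minus LPS on the right, in p50-/-IL10-/- (red circles) and IL10-/- cells (blue squares). Filled symbols passed an adjusted p of 0.05, and at right Ccl2 is the gene that passed in both genotypes.

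Cells given LPS with IL-10 were also set against unstimulated cells, to see which rises remained in the presence of the cytokine. In p50-/-IL10-/- cells 6 genes were higher and 1 lower (16.7% and 21.2% of all genes). In IL10-/- cells 8 were higher and 0 lower (6.94% and 12.5% of all genes). There 9 of the 10 had an unadjusted limma p under 0.05, a threshold without a counted share of all genes. Ccl2 was higher by 3.39 ± 0.17 log2 without p50 and by 1.74 ± 0.17 log2 with it, and Ccl12 by 5.07 ± 0.52 and 3.37 ± 0.52 log2. Ccl3 was higher by 2.76 ± 0.21 and 2.27 ± 0.21 log2, and Ccl4 by 3.89 ± 0.28 and 2.75 ± 0.28 log2. Ccl7 was higher by 3.05 ± 0.34 and 1.66 ± 0.34 log2, and Ccl5 by 2.16 ± 0.63 and 2.97 ± 0.63 log2. Ccl5 in p50-/-IL10-/- cells was again not called in any leave-one-array-out fit (adjusted p up to 0.0967), and without array 2 of unstimulated IL10-/- cells its difference in IL10-/- cells was 1.55 log2. That difference was not called without array 1 of IL10-/- cells given both agents (adjusted p 0.0539).

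Ccl6 changed by -0.40 ± 0.08 log2 without p50 and by 0.26 ± 0.08 log2 with it (adjusted p 0.00234 and 0.0378), and the other probe set gave -0.69 ± 0.12 and 0.49 ± 0.12 log2, both called. The rise in IL10-/- cells on the main probe set was not called in any of 4 leave-one-array-out fits (adjusted p up to 0.181). Ccl9 rose by 1.06 ± 0.15 log2 in IL10-/- cells and changed by 0.34 ± 0.15 log2, not called, in p50-/-IL10-/- cells. In IL10-/- cells 5 genes were called when array 1 of cells given both agents was left out.

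The genotypes were compared at each stimulus, to see which genes differ without p50 and p105. With LPS and IL-10, 1 of 10 genes was higher and 2 were lower in p50-/-IL10-/- cells (7.58% and 10.4% of all genes). With LPS 0 were higher and 3 lower (5.66% and 6.72%), and without stimulus 0 were higher and 2 lower (1.26% and 1.31%). At an unadjusted limma p under 0.05 there were 6 genes with LPS and IL-10, 4 with LPS and 4 without stimulus. The share of all genes under that threshold was not counted. Ccl6 and Ccl9 were lower without p50 at all 3 stimuli.

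Ccl6 read 10.36 and 10.38 log2 in p50-/-IL10-/- cells given both agents, against 12.05 and 12.08 in IL10-/- cells, a difference of -1.70 ± 0.08 log2 (3.24-fold lower, adjusted p 1.2e-06). With LPS it read 10.52 and 10.47 log2 in p50-/-IL10-/- cells, against 11.50 and 11.62 in IL10-/- cells (-1.06 ± 0.08 log2). Unstimulated p50-/-IL10-/- cells read 10.83 and 10.71 log2, against 11.78 and 11.83 in IL10-/- cells (-1.04 ± 0.08 log2). Its other probe set gave -2.32, -1.26 and -1.14 log2 (SE 0.12 each), all called.

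Ccl9 read 11.21 and 11.51 log2 in p50-/-IL10-/- cells given both agents, against 13.08 and 13.10 in IL10-/- cells, a difference of -1.73 ± 0.15 log2 (3.32-fold lower, adjusted p 6.97e-05). With LPS it read 11.61 and 11.17 log2, against 12.93 and 12.88 in IL10-/- cells (-1.51 ± 0.15 log2), and without stimulus 11.19 and 10.86 log2, against 12.03 and 12.04 (-1.01 ± 0.15 log2, adjusted p 0.00594). Every p50-/-IL10-/- array lay below every IL10-/- array for both genes. The other probe set of Ccl9 gave -1.90, -1.42 and -0.78 log2 (SE 0.25 each), and the last, without stimulus, was not called (adjusted p 0.178). That call was also lost on the main probe set without array 2 of unstimulated p50-/-IL10-/- cells (adjusted p 0.0676). Whether the shared runs in the windows printed above have a part in these differences was not tested.

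Granule genes of neutrophils, cells that also belong to the myeloid line, were lower in the same comparisons. Of 6 measured markers of a list of 7, 3 were lower with LPS and IL-10 (Camp, Ngp, Ltf), 5 with LPS and 4 without stimulus, and none was dim. The mean of the list lay at 7.28 to 7.46 log2 on p50-/-IL10-/- arrays, against 7.76 to 7.96 on IL10-/- arrays. The stromal list had means of 5.51 to 5.81 log2, against 5.98 to 6.49, with Dcn, a matrix proteoglycan gene, called lower at each stimulus. The integrin gene Itgax, counted here among dendritic markers but also made by macrophages, had group means of 10.48 to 10.72 log2 without p50, against 7.84 to 7.97 with it. Among the macrophage markers Adgre1 was called lower and Mertk higher without p50 with LPS and with both agents. Cd68 was called higher with LPS, and Itgam lower with both agents. The dendritic markers Flt3 and Zbtb46, the latter dim in all groups, were also called higher with both agents. With LPS, Col1a2 of the stromal list and Mcpt8 of the mast cell and basophil list were called lower. The part of these differences in the values of Ccl6 and Ccl9 was not tested.

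Ccl2 was higher without p50 in cells given LPS and IL-10, with 9.85 and 9.95 log2, against 8.93 and 9.00 in IL10-/- cells (0.93 ± 0.17 log2, 1.91-fold, adjusted p 0.00425). With LPS its difference was 0.51 ± 0.17 log2 and without stimulus -0.71 ± 0.17 log2, and both missed the threshold (adjusted p 0.0783 and 0.055). The unstimulated difference of Ccl2 was called without array 1 of IL10-/- cells (-0.90 log2, adjusted p 0.041) and with dim genes filtered out (0.0498). Ccl3 was lower without p50 with LPS, by -0.83 ± 0.21 log2 (adjusted p 0.0277), and this was lost in 2 of 4 leave-one-array-out fits (adjusted p 0.13 and 0.186, without IL10-/- array 1 and without p50-/-IL10-/- array 2) and when both groups were fitted alone (0.132). Its differences with both agents (-0.22 ± 0.21 log2) and without stimulus (-0.70 ± 0.21 log2) were not called, although the unstimulated one was when its groups were fitted alone (adjusted p 0.0351).

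With LPS and IL-10, Ccl12 differed by 1.51 ± 0.52 log2, Ccl7 by 0.78 ± 0.34 log2, Ccl4 by 0.76 ± 0.28 log2 and Ccl5 by 0.59 ± 0.63 log2 between p50-/-IL10-/- and IL10-/- cells, and none was called (adjusted p 0.0712, 0.139, 0.0863 and 0.548). Fitted on both groups alone, Ccl4 and Ccl5 were called higher (adjusted p 0.0377 and 0.0321). Arrays of the genotypes did not overlap for these 4 genes at this stimulus. With 2 arrays a group, such a separation has a two-sided p of 0.333 in an exact permutation test. The share of all genes without overlap was not counted, so no result is drawn from the separation of these 4 genes. The difference of Ccl5 without stimulus rested on 1 array: it was 1.40 ± 0.63 log2 with all arrays, not called, -0.02 log2 without array 2 of unstimulated IL10-/- cells, and 2.83 log2 without array 1 (adjusted p 1.32e-05).

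**Figure D3:**
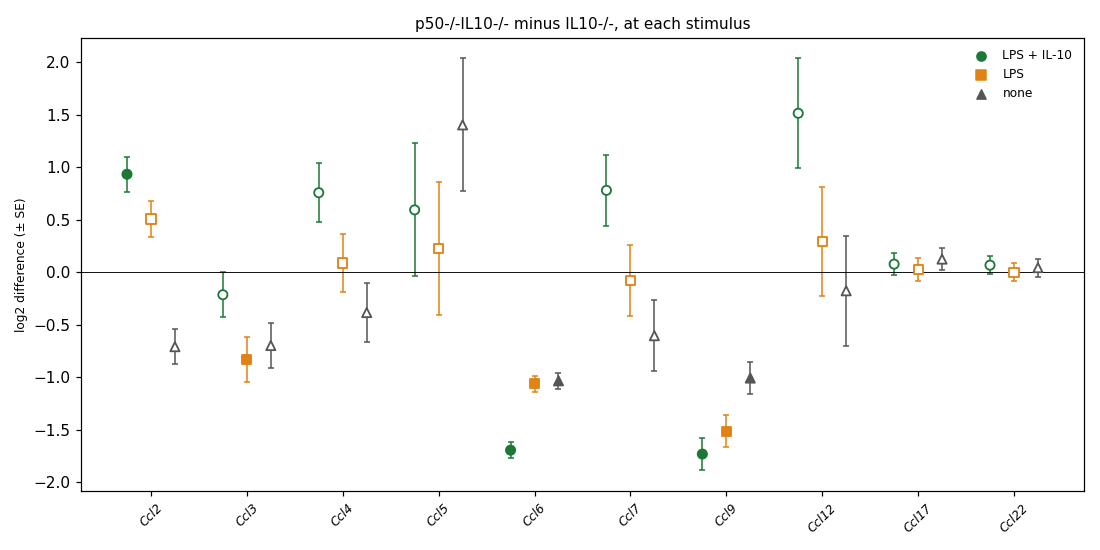
Log2 difference of p50-/-IL10-/- minus IL10-/- cells with its SE (vertical axis) for the 10 CC chemokine genes, with LPS and IL-10 (green circles), LPS (orange squares) and no stimulus (grey triangles). Filled symbols passed an adjusted p of 0.05, and Ccl6 and Ccl9 lie between -1.73 and -1.01 log2 at all 3 stimuli.

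The Ccr4 ligands were flat. Ccl17 (gene ID 20295) lay between 5.80 and 6.29 log2 on all arrays and Ccl22 (gene ID 20299) between 5.95 and 6.30 log2, not far above the dim level. Their group means spanned 0.28 and 0.27 log2, and neither was called in any of the 11 comparisons, although the change with LPS in IL10-/- cells had an adjusted p of 0.107 for Ccl17 and 0.0756 for Ccl22. With arrays centred on their medians, that change was called for both (0.36 and 0.32 log2, adjusted p 0.0387 and 0.0218), as were the other rises of Ccl22 over unstimulated cells (0.28 to 0.31 log2). That centring moves every LPS change by the same amount in a genotype, 0.13 log2 without p50 and 0.09 log2 with it. These changes were positive under both scalings, and only their calls differed.

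Of 13 other CC chemokine genes, 8 were measured by a probe set of their own. With LPS 2 were higher in p50-/-IL10-/- cells (10.3% of all genes) and 0 in IL10-/- cells (7.76% of all genes), where 0 also passed at an unadjusted limma p under 0.05, and none was called between the genotypes at any stimulus, where 1 passed unadjusted at each. Of these 2, Ccl8 lost its call in 3 of 4 leave-one-array-out fits (adjusted p up to 0.243, without array 1 of LPS-treated cells) and with robust eBayes (0.0962). The median change of the 8 genes with LPS was 0.11 log2 without p50 and 0.06 log2 with it. Ccl8, a further monocyte attractant, was higher with both agents than without stimulus in both genotypes. The difference was 2.74 log2 in p50-/-IL10-/- and 2.70 log2 in IL10-/- cells (adjusted p 0.000636 and 0.00115). With 1 array left out it ranged from 2.24 to 3.23 and from 2.15 to 3.25 log2. Against LPS alone, Ccl8 was the gene that rose with IL-10. It read 11.15 and 10.69 log2 with both agents in IL10-/- cells, against 9.33 and 8.66 with LPS, a rise of 1.93 ± 0.42 log2 (adjusted p 0.0214). In p50-/-IL10-/- cells it read 9.99 and 10.98 log2 with both, against 9.53 and 8.64 with LPS, a rise that was not called. The effect of IL-10 on Ccl8 was not called different between the genotypes. The call in IL10-/- cells was lost in 3 of 4 leave-one-array-out fits (adjusted p up to 0.14, without array 1 of cells given both agents). Ccl24, an eosinophil attractant, was higher by 0.68 ± 0.14 log2 with LPS in p50-/-IL10-/- cells, and Ccl1 differed by 0.29 ± 0.09 log2 between cells given both agents and unstimulated cells of that genotype, which was lost in all 4 leave-one-array-out fits (adjusted p 0.0642 to 0.155).

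Probe sets of their own measured 14 genes for CC chemokine receptors and decoys. With LPS 1 was higher (Ccrl2) in IL10-/- cells (7.76% of all genes). In p50-/-IL10-/- cells 2 were higher (Ccr3 and Ccrl2) and 1 lower (Ccr1), against 10.3% and 22.1% of all genes. Ccr1 changed by -1.16 log2 there, between -1.29 and -1.03 log2 with 1 array left out. Its call was lost in 2 of 4 such p50-/-IL10-/- fits. Ccrl2 rose with LPS by 3.40 log2 in p50-/-IL10-/- and by 2.91 log2 in IL10-/- cells (adjusted p 1.85e-08 and 7.25e-08). With both agents it was higher without p50 by 1.73 log2 (adjusted p 1.37e-05). Ccrl2, which binds the attractant chemerin and does not signal like its relatives, read 12.20 and 12.21 log2 with both agents in p50-/-IL10-/- cells, against 12.98 and 12.82 with LPS, a fall of 0.70 ± 0.11 log2. Its IL10-/- arrays read 10.35 and 10.60 log2 with both, against 12.44 and 12.35 with LPS, a fall of 1.92 ± 0.11 log2. The effect of IL-10 thus differed by 1.22 ± 0.16 log2 (adjusted p 0.0125), which was lost in 4 of 8 leave-one-array-out fits (adjusted p up to 0.0919, without array 2 of p50-/-IL10-/- cells given both agents).

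Ccr1, the receptor for Ccl6 and Ccl9, read 7.41 and 7.16 log2 in p50-/-IL10-/- cells given both agents, against 9.12 and 9.69 in IL10-/- cells, a difference of -2.12 ± 0.31 log2 (adjusted p 0.00133). With LPS it was lower without p50 by -1.15 ± 0.31 log2 (adjusted p 0.0345), and this was lost in 3 of 4 leave-one-array-out fits (up to 0.205, without array 2 of LPS-treated IL10-/- cells). IL-10 given with LPS raised Ccr1 by 1.37 ± 0.31 log2 in IL10-/- cells, which was lost in 2 of 4 such fits (up to 0.186, without array 2 of cells given both). The monocyte receptor Ccr2 was dim in all groups. The small changes of Ackr4, a scavenging receptor, and of Ccr3, which was dim in all groups, were called against unstimulated cells in p50-/-IL10-/- cells (0.58 ± 0.09 and 0.41 ± 0.10 log2 with both agents). For Ccr3 this was lost in 2 of 4 leave-one-array-out fits (adjusted p up to 0.0831, without array 1 of cells given both). Its rise with LPS alone was lost in all 4 (0.0681 to 0.215) and with all probe sets tested (0.0523).

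**Figure D4:**
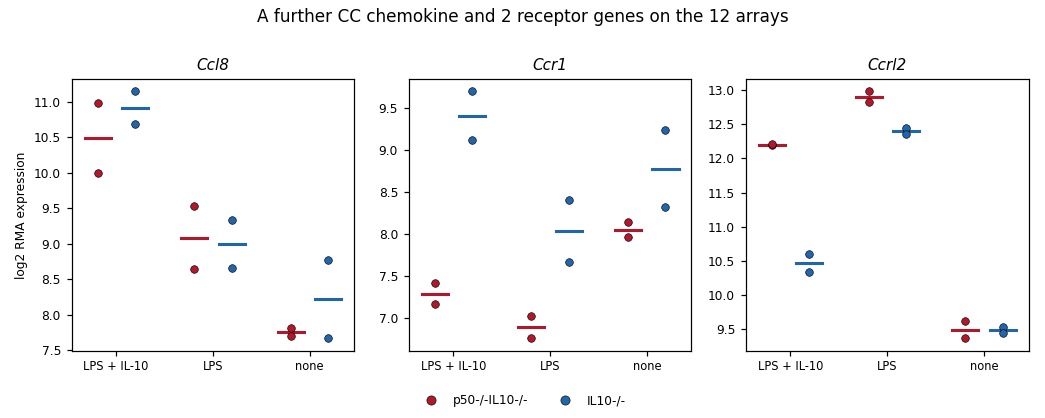
Log2 RMA expression (vertical axes) of Ccl8, Ccr1 and Ccrl2 on the 12 arrays, by stimulus and genotype (red, p50-/-IL10-/-; blue, IL10-/-), with points for arrays and bars for means of 2. With LPS and IL-10, Ccrl2 read 12.20 and 12.21 log2 in p50-/-IL10-/- cells, against 10.35 and 10.60 in IL10-/- cells, and Ccr1 was lower without p50.

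Genes whose values over the 12 arrays lay nearest to those of a member, after each gene was centred on its mean, are given as a description. For Ccl2 these were the neutrophil attractant Cxcl2 and the phosphatase Dusp2, with root mean square differences of 0.32 and 0.37 log2. For Ccl4 they were the cytokine genes Tnf and Il1b (0.40 and 0.43 log2), and for Ccl5 the itaconate enzyme Acod1 and the interferon-induced Gbp2 (0.38 and 0.44 log2). Ccl12 lay nearest to Cd40 and Ch25h (0.52 and 0.53 log2), Ccl7 to Lpar1 and Dusp2 (0.30 and 0.31 log2), and Ccl3 to Icosl and Nfkbie (0.43 and 0.44 log2). Ccl6 lay nearest to Glo1 and Fcrls (0.20 and 0.22 log2) and Ccl9 to Sema4a and Lcn2 (0.22 and 0.25 log2).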

How the data were processed

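Expression of bone marrow macrophages was measured on 12 Affymetrix arrays, in 6 groups of 2 by genotype and stimulus. The authors deposited log2 values of 22690 probe sets in 1 table. RMA and limma are the tools in the submitters' processing notes, without versions. Of these, 64 control probe sets were left out, 691 carried several symbols and 1555 none. From the deposited values a mean was fitted per group over all arrays with limma 3.58.1 in R 4.3.3, without a block, with 6 residual and 4.47 prior degrees of freedom. A gene was called at a two-sided Benjamini-Hochberg adjusted p under 0.05 over the 12393 genes of a comparison, of which there were 11. With 2 arrays a group, the smallest two-sided p of an exact permutation test is 0.333. Log2 differences carry SE, folds are 2 to that power, and precision is limited by the array number. Alternatives covered the samples fitted, array scaling, dim genes, probe sets tested, the prior variance, replicate blocks and each array left out.

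Named were the 10 members, the genes of both related lists that were called anywhere, and the 2 genes nearest to each member whose group means span at least 1 log2. The members, lists and tests were chosen with earlier results of these data known. Nfkb1 is not reported here. Steps were tested on simulated data.

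The limma p-values set each difference against a spread between arrays that is pooled over all 6 groups and moderated by the prior. That spread may in part be technical.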

Additional observations from a re-analysis of the deposited data

Results flagged for a closer look

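The response of Ccl2 to LPS was 1.22 ± 0.24 log2 larger in p50-/-IL10-/- than in IL10-/- cells by the test of the difference itself (adjusted p 0.04, n = 2 arrays per group in limma). The call was lost in 5 of 8 leave-one-array-out fits (adjusted p up to 0.163), with the groups fitted alone (0.11) and with all probe sets tested (0.0576). Its LPS arrays were higher than its unstimulated arrays in both genotypes.

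The effect of IL-10 on Ccrl2 in LPS-treated cells differed by 1.22 ± 0.16 log2 between p50-/-IL10-/- and IL10-/- cells by the same kind of test (adjusted p 0.0125), and this was lost in 4 of 8 leave-one-array-out fits (up to 0.0919). Groups of 2 arrays are too small to look for a single array that stands apart by a test.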

How the results depend on the processing

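Of 43 called differences of the 10 genes, 30 were called under every alternative and with each array left out. No called difference changed sign, while 50 of 1400 values changed sign, all of them between fits in which the difference was not called. Of 88 counts of called genes under settings other than leaving out an array, 81 were within 1.5 times the count reported. Of 52 such counts with 1 array left out, 41 were.

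With 1 array left out, the differences that changed sign had these log2 ranges. The IL-10 effect in p50-/-IL10-/- cells ranged from -0.15 to 0.050 for Ccl4, -0.46 to 0.29 for Ccl7, -0.25 to 0.19 for Ccl9, -0.91 to 0.29 for Ccl12 and -0.11 to 0.11 for Ccl17. The IL-10 effect in IL10-/- cells ranged from -0.14 to 0.033 for Ccl17 and -0.15 to 0.095 for Ccl22. The genotype difference without stimulus ranged from -0.023 to 2.83 for Ccl5 and -0.43 to 0.074 for Ccl12. That with LPS ranged from -0.33 to 0.50 for Ccl4, -0.53 to 0.37 for Ccl7, -0.40 to 0.98 for Ccl12, -0.090 to 0.13 for Ccl17 and -0.015 to 0.012 for Ccl22. That with LPS and IL-10 ranged from -0.013 to 0.16 for Ccl17 and -0.055 to 0.19 for Ccl22. The genotype difference in response to LPS ranged from -0.46 to 0.19 for Ccl3, -2.60 to 0.25 for Ccl5, -0.089 to 0.031 for Ccl6, -0.22 to 1.16 for Ccl12 and -0.21 to 0.0083 for Ccl17. That in the effect of IL-10 ranged from -0.44 to 0.0042 for Ccl9, -0.056 to 0.17 for Ccl17 and -0.053 to 0.19 for Ccl22. With centring, the values that changed sign were Ccl22 -0.018 for the IL-10 effect in p50-/-IL10-/- cells, Ccl22 0.031 for the genotype difference with LPS and Ccl6 0.0072 for the genotype difference in response to LPS. With the replicate block within genotypes they were Ccl17 -0.013, Ccl22 -0.0012 for the genotype difference without stimulus, Ccl4 -0.27, Ccl5 -0.32, Ccl12 -0.12, Ccl17 -0.12 for the genotype difference with LPS and Ccl17 -0.060 for the genotype difference with LPS and IL-10.

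Fitted on the compared groups alone, the count became 1 of 10 for the IL-10 effect in IL10-/- cells (3 in the fit on all groups), 5 for the genotype difference with LPS and IL-10 (3) and 0 for the genotype difference of the LPS response (1). The last was also 0 with all probe sets tested. With 1 array left out, the count lay between 2 and 6 for the IL-10 effect in IL10-/- cells (6 without array 2 of LPS-treated cells), between 5 and 8 for LPS with IL-10 against no stimulus in IL10-/- cells (5 without array 1 of cells given both), and between 1 and 4 for the unstimulated genotype difference (1 without array 2 of p50-/-IL10-/- cells, 4 without array 1 of IL10-/- cells). It lay between 0 and 2 for the genotype difference of the LPS response (2 without array 1 of unstimulated IL10-/- cells; 0 without array 2 of these, array 1 or 2 of unstimulated p50-/-IL10-/- cells, or in the LPS-treated groups IL10-/- array 2 or p50-/-IL10-/- array 1) and between 0 and 1 for that of the IL-10 effect (1 without array 2 of LPS-treated IL10-/- cells). The cause was not tested.

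Whether array numbers mark shared cultures is not given. Differences between arrays 1 and 2 correlated between groups at 0.40 to 0.60 across genes within IL10-/- cells and at -0.49 to 0.28 within p50-/-IL10-/- cells. With a replicate block over all groups 5 genes were called for the genotype difference with LPS and IL-10, with Ccl4 and Ccl12 added (adjusted p 0.0404 and 0.0392). With the block within genotypes 6 were called for the IL-10 effect in IL10-/- cells, with Ccl4, Ccl7 and Ccl12 added as lower (adjusted p 0.00229, 0.0484 and 0.0378), and 1, Ccl6, for its genotype difference (0.0426). An added block with the numbers of p50-/-IL10-/- cells given both agents exchanged, chosen after seeing the data, called 6 for the IL-10 effect in IL10-/- cells, 4 for the unstimulated genotype difference, 5 for that with LPS and IL-10, and 2 each for how the genotypes differ in response to LPS and in the effect of IL-10.

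Counts over all genes moved by more than 1.5 times as well. With all probe sets tested, so that more rows enter, LPS calls were 6363 in p50-/-IL10-/- cells (4012 over genes) and 4807 in IL10-/- cells (3078), and genotype calls were 2360 with LPS (1535) and 532 without stimulus (318). LPS with IL-10 against no stimulus gave 7191 in p50-/-IL10-/- cells (4703) and 3817 in IL10-/- cells (2411), and the genotype difference of the IL-10 effect gave 28 (17), against 10 when the compared groups were fitted alone. That fit gave 1914 for LPS and 283 for IL-10 (765) in IL10-/- cells, 581 for the genotype difference with LPS and 78 for that of the LPS response (147). The block within genotypes gave 74 for that of the IL-10 effect, and the exchanged block 222, with 426 for that of the LPS response, 573 for the unstimulated genotype difference, and 1673 (814) and 1302 for IL-10 in p50-/-IL10-/- and IL10-/- cells. With 1 array left out the lowest counts were 270 for IL-10 in p50-/-IL10-/- cells, 101, 671 and 987 (2231) for the genotype without stimulus, with LPS and with both, and 32 and 4 for genotype differences in the response to LPS and the effect of IL-10.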
